A study of Mus musculus with 18 samples.

Results

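The cytosolic ribosomal protein genes are the nuclear genes whose products, together with ribosomal RNA, build the ribosome of the cytoplasm. They were taken from the gene table by symbol alone (Rpl or Rps followed by a number, Rplp0 to Rplp2, and Rpsa), which gave 81 of 46073 genes. Of these, 43 encode large subunit proteins, 3 encode the P stalk of the large subunit, 30 encode small subunit proteins, and 5 are paralogs named after a standard member (Rpl3l, Rpl10l, Rpl39l, Rps27l and Rps4l). The 76 genes other than the paralogs are called core genes below. After the filter on low counts 79 of the 81 were tested, among them all 76 core genes; Rpl10l and Rpl3l were not.

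RNA came from donor T cells re-isolated from the spleens of transplanted mice on day 7, sorted as live CD3+ CD45.2+ cells, in 12 libraries of 3 per group. The groups were allogeneic Wapl KO, allogeneic WT, syngeneic Wapl KO and syngeneic WT. All donors were C57BL/6 (CD45.2) mice of 8 to 12 weeks, with or without Wapl, the factor that releases cohesin rings from chromatin. Allogeneic recipients were CByJ.SJL(B6)-Ptprca/J mice (H-2d, CD45.1) given 8 Gy, and syngeneic recipients were B6.SJL-Ptprca Pepcb/BoyJ mice (H-2b, CD45.1) given 9.5 Gy and a larger dose of donor T cells. All recipients also received T cell depleted donor marrow. Irradiation and T cell dose therefore differed between the transplant settings and cannot be told apart from the recipient strain. Each library pooled 2 to 4 mice, and whether replicates came from separate transplants is not stated, so p-values measure the spread between these pools. The Cre driver and the deleted exons are not given in the sources used here. For the syngeneic KO libraries the cell type label names the allogeneic recipient strain, and that of the allogeneic libraries names BALB/c; all were grouped by their transplant type label.

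A ribosome holds a single copy of nearly every ribosomal protein, the stalk proteins P1 and P2 being the exception. Messenger RNAs of these proteins begin with a C followed by an unbroken run of pyrimidines, the 5′ terminal oligopyrimidine (TOP) motif, through which mTORC1 and the RNA-binding protein Larp1 control their translation and stability together. T cells enlarge their pool of ribosomes when an antigen receptor signal drives them from rest into growth. Several members also have named roles outside the ribosome, such as the binding of Mdm2 by Rpl5 and Rpl11.

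Start sites are shown for members that the results below return to and for standard examples. RefSeq promoter sequences on GRCm38.p6 were matched by symbol for 60 of the 81 genes. Each line gives 30 bases of the sense strand, 15 before the annotated start and 15 from the start on, with capitals marking the longest pyrimidine run (the first of equal ones) that began with C within 10 bases of the start and went on for at least 4 more C or T bases.
Rps6 (chr4:86857353-86857382, minus strand): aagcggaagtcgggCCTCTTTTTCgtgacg
Rpl28 (chr7:4792950-4792979, plus strand): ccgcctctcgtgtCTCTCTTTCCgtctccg
Rplp2 (chr7:141447636-141447665, plus strand): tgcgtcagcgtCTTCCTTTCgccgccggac
Rpl13a (chr7:45128731-45128760, minus strand): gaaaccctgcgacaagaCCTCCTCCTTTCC
Rps27 (chr3:90213634-90213663, minus strand): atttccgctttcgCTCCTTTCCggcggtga
Rpl39 (chrX:37085208-37085237, minus strand): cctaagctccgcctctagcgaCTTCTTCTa
Rpl39l (chr16:10170213-10170242, plus strand): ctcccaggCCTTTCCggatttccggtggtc
Rps28 (chr17:33824548-33824577, minus strand): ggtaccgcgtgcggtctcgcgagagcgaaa
Such a run was present at a start of 34 of 56 core genes with a sequence (60.7%), against 37.4% of 11146 tested genes with a sequence. Of all 27025 genes with a promoter sequence it was present for 34.4%. Among other gene groups it was present for 31 of 68 mitochondrial ribosomal protein genes (45.6%) and for 9 of 17 other known TOP messenger RNAs (52.9%). The Rps28 window held none, and the run of Rpl13a, 14 bases long, goes on past the end of the printed bases. A match describes letters near an annotated start and not the start used in these cells.

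The core genes were abundant in every library. Levels are given as CPM, counts scaled to a common library size with TMM factors; the lowest count of a core gene in a library was 4039 reads. Mean CPM over the 12 libraries ran from 111.3 for Rpl35a to 1670 for Rpl4, with a median of 449.4, against a median of 7.58 over all tested genes, and 29 core genes were among the 185 tested genes of highest mean CPM. Per kilobase of transcript the core genes spanned 216.5 to 3035 CPM per kb. The highest per kilobase were Rpl13a (3035), Rpl4 (1951) and Rplp0 (1934), which anchors the stalk, and the lowest core gene was Rpl35a (216.5). The length used was the median over all annotated transcripts of a gene, which need not be that of the messenger RNA made in these cells. This range is therefore not read as a range of messenger RNA amounts. Introns of ribosomal protein genes often carry small nucleolar RNA genes: 29 of 76 core genes contained at least 1 (38.2%), against 1.61% of 13707 tested protein-coding genes.

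Whole-library facts that touch these genes were as follows. Total counts ran from 45965659 to 89007100. The 81 genes took 2.75 to 5.35% of them, and ribosomal RNA rows took 6.62 to 27.4%, most in syngeneic KO replicate 1. Rows of processed pseudogenes named after 57 of the members (258 rows) held 2.01 to 2.27 counts per 100 counts of the members. Wapl itself, listed as Wapal, averaged 140.0 ± 14.6 CPM in allogeneic KO and 161.0 ± 6.80 in allogeneic WT, and 134.6 ± 6.29 in syngeneic KO and 187.8 ± 20.8 in syngeneic WT (SD, n = 3 each). The fall was called in the syngeneic setting (log2 fold change −0.48, SE 0.11, edgeR adjusted p = 0.0368) and not in the allogeneic one (−0.20, SE 0.11, adjusted p = 0.963). The sum of 4 Y-linked genes was 31.4 to 138 CPM in the 6 KO libraries and 0.733 to 1.75 CPM in the 6 WT libraries, while the labels name female donors. This difference between the genotypes cannot be told apart from Wapl.

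The core genes moved as a block between single libraries, within every group. Their summed level was 36984, 56728 and 25990 CPM in allogeneic KO, 39510, 29143 and 29915 in allogeneic WT, 69196, 39396 and 39371 in syngeneic KO, and 45971, 32597 and 35225 in syngeneic WT (replicates 1 to 3). The ranges of all 4 groups overlapped. In each group a single library was the highest for 76 of 76 core genes: allogeneic KO replicate 2, allogeneic WT replicate 1, syngeneic KO replicate 1 and syngeneic WT replicate 1. Allogeneic KO replicate 3 was the lowest of its group for all 76.

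Over the 12 libraries, syngeneic KO replicate 1 was the highest for 70 of 76 core genes (92.1%, against 12.3% of all tested genes), and allogeneic KO replicate 3 was the lowest for 71. The median ratio of the highest to the lowest replicate of a core gene was 2.19 in allogeneic KO, 1.36 in allogeneic WT, 1.79 in syngeneic KO and 1.41 in syngeneic WT. The same ratio over all tested genes was 1.54, 1.31, 1.43 and 1.28 in that order. Rps6, the small subunit protein phosphorylated by S6 kinase, shows the pattern: it stood at 553.6, 794.8 and 376.3 CPM in allogeneic KO and 578.7, 435.8 and 445.0 in allogeneic WT. In syngeneic KO it stood at 1059, 618.9 and 606.2 CPM, and in syngeneic WT at 711.7, 510.3 and 560.3. The KO groups held both the highest and the lowest library.

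**Figure D1:**
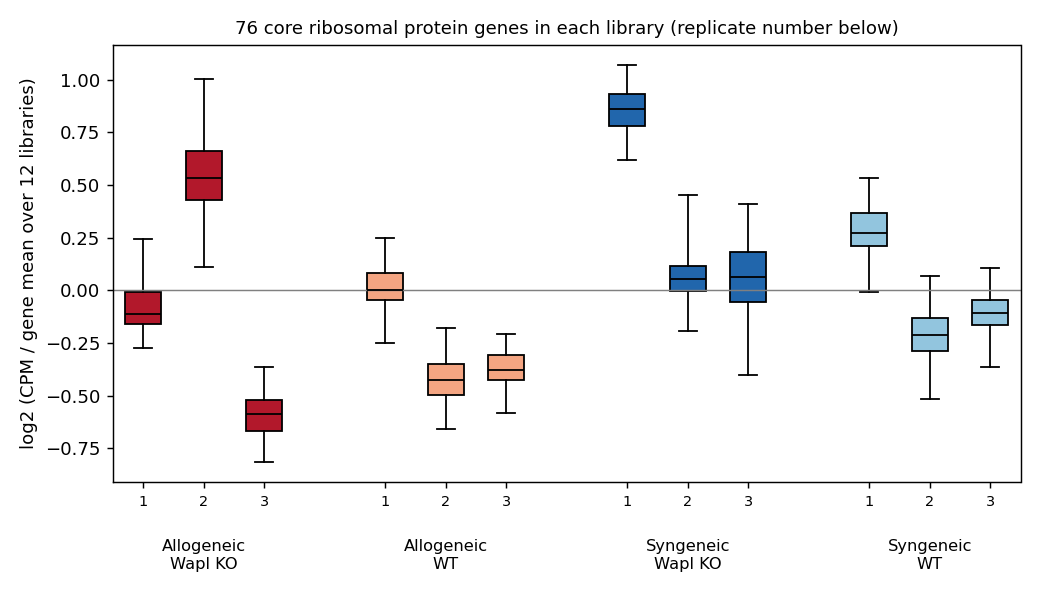
Level of the 76 core ribosomal protein genes in each library, as log2 of CPM over the gene's own mean in the 12 libraries (boxes: quartiles and median over genes; whiskers: full range; x axis: replicate number within each group). Syngeneic Wapl KO replicate 1 and allogeneic Wapl KO replicate 2 stand above the other libraries of their groups and allogeneic Wapl KO replicate 3 below, for the whole set of genes.

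Within each group, markers of T cells moved with this block. All 7 T cell markers (such as Cd3e and Lck) were detected in every library, and their sum was 3078, 4133 and 2564 CPM in allogeneic KO, 3130, 2806 and 2861 in allogeneic WT, 3599, 2335 and 2132 in syngeneic KO, and 2606, 1944 and 2030 in syngeneic WT. Within each group it was highest in the same library as the core genes. B cell markers did not follow it: the sum of 7 was 450.1, 966.5 and 3227 CPM in allogeneic KO, 1502, 1226 and 1838 in allogeneic WT, 496.7, 1644 and 2758 in syngeneic KO, and 522.2, 935.2 and 1056 in syngeneic WT, with 6 of the 7 detected in every library. It was highest in the library in which the core genes of the allogeneic KO group were lowest. The sum of 4 NK cell markers, 3 of them detected in every library, was highest in each group in the same library as the core genes. It stood there at 129.5 CPM in allogeneic KO, 106.7 in allogeneic WT, 182.4 in syngeneic KO and 175.5 in syngeneic WT. The sums of mitochondrial ribosomal protein genes and of other TOP messenger RNAs were highest in these libraries as well. The part of these markers in the spread of the ribosomal protein genes was not tested. In sorted bulk samples, fewer cells with much of an RNA and less of that RNA per cell cannot be told apart. Between transplant settings the T cell markers went the other way from the core genes. For allogeneic over syngeneic libraries 7 of 7 had a fitted value above 0 in WT (median 0.47) and 6 of 7 in KO (0.42). The core medians were −0.25 and −0.33. Of the 7, edgeR called 2 higher in WT and 0 in KO (16.4% and 13.2% of all tested genes).

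In syngeneic recipients no core gene passed the test between KO and WT, and 1 paralog did. Fitted values of all 76 core genes were above 0 (log2 fold change of KO over WT from 0.12 to 0.53, median 0.38, against a median of 0.06 over all tested genes). With total counts in place of TMM the median was 0.18, with 73 of 76 above 0. Other lists had fitted values on the same side: 75 of 76 mitochondrial ribosomal protein genes (median 0.35), 7 of 7 ribosomal relatives outside the symbol rule (0.43), 22 of 25 other TOP messenger RNAs (0.27) and 7 of 7 T cell markers (0.29), with 0 called by edgeR in each (at an unadjusted p under 0.05, 11, 1, 3 and 0 genes in that order, all higher). With edgeR 0 of 76 core genes were called (smallest adjusted p 0.366), against 3.37% of all tested genes (0.743% higher, 2.63% lower). At an unadjusted p under 0.05 there were 0 core genes, against 14% of tested genes, and 0 by the adjusted p of DESeq2. No core gene was free of overlap between the groups, against 13.2% (higher) and 10.1% (lower) of tested genes. Without syngeneic KO replicate 1 the median of the core genes was 0.02 and 47 of 76 were above 0. The largest fitted value of a core gene was that of Rpl36, at 330.6, 179.4 and 210.2 CPM in KO and 209.3, 133.6 and 157.5 CPM in WT (log2 fold change 0.53, SE 0.34, adjusted p = 0.505).

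Same-numbered syngeneic libraries deviated together over all genes (residual correlations of 0.545, 0.170 and 0.335). KO replicate 3 also did so with WT replicate 2 (0.363), and KO replicate 2 with WT replicate 3 (0.114). The labels state no pairing, so the replicate number is not an established pair. A fit with this number as a block was made within the 6 syngeneic libraries, a choice that rests on these same libraries. Taken by number, KO was above WT for 76 of 76 core genes in pair 1 (median log2 ratio 0.58), for 76 in pair 2 (0.28) and for 70 in pair 3 (0.17). The blocked edgeR fit called 15 members higher, 14 of them core genes, and 0 lower. Of all tested genes it called 7.29% in either direction and 2.16% higher. This fit rests on 6 libraries and has fewer residual degrees of freedom than the 8 of the main model. The smallest adjusted p among core genes was that of Rpl29 (log2 fold change 0.45, SE 0.09, adjusted p = 0.0126), which averaged 196.2 ± 44.6 CPM in KO and 138.8 ± 27.97 CPM in WT (SD, n = 3 each). Others were Rpl36 (0.46), Rpl7a (0.44), Rpl18 (0.43), Rpl27 (0.42), Rps2 (0.42), Rpl37a (0.42), Rpl28 (0.40), Rps19 (0.38), Rpl15 (0.38), Rps26 (0.38), Rpl11 (0.37) and Rpl37 (0.36), with adjusted p from 0.0167 to 0.0479. The same block over all 12 libraries called 0 members. Erythroid markers differed between these groups as well: the sum of 10 was 71.3 to 167 CPM in syngeneic KO and 2285 to 5273 CPM in syngeneic WT, all 10 being detected in every library. Of 9 myeloid markers 4 were called lower in KO, their sum being 28.6, 149.8 and 344.1 CPM in syngeneic KO and 246.2, 741.6 and 765.4 CPM in syngeneic WT, and 1 of 4 platelet markers was called lower. The part of these markers in the values of the ribosomal protein genes was not tested.

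In allogeneic recipients no member passed the test between KO and WT. Fitted values of all 76 core genes were again above 0 (0.12 to 0.37, median 0.29, against 0.03 over all tested genes). With total counts the median was 0.12, with 74 of 76 above 0. Fitted values were also above 0 for 76 of 76 mitochondrial ribosomal protein genes (median 0.22), 7 of 7 relatives (0.29), 22 of 25 other TOP messenger RNAs (0.24) and 6 of 7 T cell markers (0.15). With edgeR 0 of 79 members were called (smallest adjusted p 0.963), against 0.0542% of all tested genes (0.0434% higher, 0.0108% lower). At an unadjusted p under 0.05 there were 0 members, against 4.18% of tested genes, and 0 by the adjusted p of DESeq2. No member was free of overlap, against 3.29% (higher) and 4.37% (lower) of tested genes. Without allogeneic KO replicate 2 the direction turned: the median of the core genes was −0.08, and 72 of 76 were below 0.

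For the interaction, which asks whether the KO effect differed between allogeneic and syngeneic recipients, edgeR called 0 of 79 members, against 0.477% of all tested genes (0.428% higher, 0.0488% lower). At an unadjusted p under 0.05 there were 0 members, against 6.2% of tested genes, and 0 by the adjusted p of DESeq2. The smallest adjusted p was that of Rps4l (difference of log2 fold changes −0.84, SE 0.44, adjusted p = 0.932).

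Between transplant settings, small subunit genes led the lower members. In WT, 68 of 76 core genes had a fitted value below 0 for allogeneic over syngeneic libraries (range −0.65 to 0.21, median −0.25, against −0.03 over all tested genes), and none passed the edgeR test. Fitted to the groups compared alone, edgeR called 11 core genes lower, and with total counts or with the replicate block over 12 libraries it called 4 (Rps29, Rps20, Rps28 and Rpl36a in both). At an unadjusted p under 0.05 there were 4 core genes, all lower (Rps29, Rps20, Rps28 and Rpl36a), against 43.2% of tested genes, and DESeq2 called these 4. In the main edgeR fit 32.3% of all tested genes were called (16.4% higher, 15.9% lower). The shares called in the alternative fits and by DESeq2 are not given here, so those counts have no background beside them. Core genes without overlap between the groups were 0 higher and 9 lower (Rps20, Rps24, Rps27, Rps28, Rps29, Rpl23, Rpl35a, Rpl36a and Rpl39), against 28.2% and 27.5% of tested genes. Erythroid markers again differed between the groups, their sum being 38.8 to 87.2 CPM in allogeneic WT and 2285 to 5273 CPM in syngeneic WT, and their part in these values was not tested.

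In KO, where erythroid markers were low in both groups (51.8 to 64.9 CPM in allogeneic and 71.3 to 167 CPM in syngeneic libraries), 74 of 76 core genes had a fitted value below 0 (range −0.85 to 0.14, median −0.33). Here edgeR called 3 core genes lower, Rps29, Rps20 and Rps28, together with the paralog Rps4l, and 1 paralog higher, Rpl39l. Over all tested genes 24.4% were called (13.2% higher, 11.2% lower). At an unadjusted p under 0.05 there were 6 core genes, all lower, against 37% of tested genes. Core genes without overlap were 0 higher and 2 lower (Rps28 and Rps29), against 17% and 16.6% of tested genes. Markers of other cells differed between the KO groups too. All 10 erythroid markers had a fitted value below 0, with 2 called lower. Of 9 myeloid markers edgeR called 2 higher, of 7 B cell markers 1 higher, of 4 NK cell markers 2 higher and 2 lower, and of 4 platelet markers 0. The part of these markers in the values of the members was not tested. The comparison within WT and that within KO share no library, but both rest on the same shared spread.

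Rps29, a zinc-binding protein of the small subunit head (ENSMUSG00000034892, GRCm38 chromosome 12, 69157722 to 69159186, minus strand), stood at 370.4, 454.3 and 238.7 CPM in allogeneic KO and 849.4, 506.8 and 559.6 CPM in syngeneic KO. In WT it stood at 367.0, 273.0 and 288.9 CPM in allogeneic and 603.8, 403.7 and 449.8 CPM in syngeneic libraries. No allogeneic library reached the lowest syngeneic one of the same genotype. The log2 fold change was −0.85 in KO (SE 0.26, edgeR adjusted p = 0.0285) and −0.65 in WT (SE 0.25, adjusted p = 0.0684).

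Rps20, also of the small subunit head (ENSMUSG00000028234, chromosome 4, 3831334 to 3835665, minus strand), stood at 354.4, 500.2 and 247.2 CPM in allogeneic KO and 867.6, 580.6 and 479.3 CPM in syngeneic KO. In WT its values were 377.6, 269.0 and 282.9 CPM in allogeneic and 592.1, 417.5 and 451.5 CPM in syngeneic libraries. The KO groups overlapped by 1 library and the WT groups did not. The log2 fold change was −0.81 in KO (SE 0.27, edgeR adjusted p = 0.0464) and −0.65 in WT (SE 0.27, adjusted p = 0.0828).

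Rps28, a small subunit protein near the messenger RNA exit (ENSMUSG00000067288, chromosome 17, 33819027 to 33824562, minus strand), stood at 271.0, 364.4 and 189.3 CPM in allogeneic KO and 664.2, 378.3 and 391.1 CPM in syngeneic KO. In WT its values were 286.4, 210.3 and 226.6 CPM in allogeneic and 467.8, 313.6 and 347.7 CPM in syngeneic libraries. Neither pair of groups overlapped. The log2 fold change was −0.80 in KO (SE 0.27, edgeR adjusted p = 0.0469) and −0.64 in WT (SE 0.27, adjusted p = 0.0847). Its annotation overlaps Kank3 on the opposite strand, and whether the counting used strand is not given in the sources used here.

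These calls in KO changed when single libraries were left out. The shares of all tested genes called in these fits are not given here, so the counts show only how the calls changed. Without syngeneic KO replicate 1, allogeneic KO replicate 1 or allogeneic KO replicate 3 edgeR called 0 members lower, and without syngeneic KO replicate 2 it called 2. Without allogeneic WT replicate 1 or 3, or syngeneic WT replicate 2 or 3, it called 1. Without allogeneic KO replicate 2 it called 13, with 76 of 76 core genes below 0. Without syngeneic KO replicate 1 the median of the core genes was 0.01. With both libraries of highest ribosomal protein level left out (syngeneic KO replicate 1 and allogeneic KO replicate 2), 5 members were called lower in KO (Rps4l, Rps20, Rpl36a, Rps29 and Rps28) and 0 higher, and 9 lower and 2 higher in WT. In WT the core median was −0.08 without syngeneic WT replicate 1. Ribosomal RNA rows took 13.2 to 14.9% of counts in allogeneic KO and 20.6 to 27.4% in syngeneic KO, and without them 3 of the 4 were called lower.

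A view that does not depend on the scaling of a library sets each core gene against the geometric mean of all 76 in the same library. In CPM 0 members were free of overlap between the 6 allogeneic and the 6 syngeneic libraries, against 12.4% (higher) and 10.4% (lower) of tested genes. On the relative scale some core genes were free of overlap between the transplant settings, and most were not. Of 76 core genes, 12 were lower in all 6 allogeneic libraries than in any of the 6 syngeneic ones and 12 were higher. On the same scale 2.63% of all tested genes were lower and 15.6% higher without overlap. As the core genes are centred on this scale and the other genes are not, these shares are given as background only. The share of core genes that were higher was near that of all tested genes and is not read as a trait of the members. The SD over core genes of the mean log2 difference was 0.187 for allogeneic minus syngeneic, 0.0907 for KO minus WT in syngeneic and 0.0412 for KO minus WT in allogeneic libraries.

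The 12 lower genes held 8 of the small subunit, 3 of the large subunit and 1 of the stalk. Rps29 was lowest (−0.45 log2 units, allogeneic minus syngeneic), followed among others by Rps20 (−0.43), Rps28 (−0.41), Rpl36a (−0.37), Rps27 (−0.27), Rps19 (−0.23), Rplp1 (−0.22), Rpl12 (−0.21), Rps25 (−0.15), Rps16 (−0.15) and Rpl23a (−0.12). Rps29 ranged from −0.44 to −0.12 relative to the core mean in the 6 allogeneic libraries and from 0.14 to 0.34 in the 6 syngeneic ones. Rps19 is mutated in Diamond-Blackfan anaemia, and Rplp1 encodes the stalk protein P1.

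The 12 higher genes held 9 of the large subunit, 2 of the small subunit and 1 of the stalk. Rpl13a was highest (0.46), followed by Rpl41 (0.38), Rpl27 (0.37), Rpl7a (0.37), Rpsa (0.31), Rpl24 (0.28), Rpl7 (0.27), Rplp0 (0.26), Rpl6 (0.22), Rpl38 (0.18), Rpl14 (0.17) and Rps13 (0.13). Rpl13a, known in other settings as part of an interferon-gamma activated translational repressor complex in human cells, ranged from 1.83 to 2.24 log2 units above the core mean in the 6 allogeneic libraries and from 1.48 to 1.68 in the 6 syngeneic ones. In CPM its values were 1434, 2905 and 1125 in allogeneic KO and 2462, 1268 and 1234 in syngeneic KO, and 1709, 1265 and 1257 in allogeneic WT and 1485, 1054 and 1125 in syngeneic WT. These overlapped within each genotype, and neither comparison was called (edgeR adjusted p = 0.804 in KO and 0.677 in WT). The annotation of Rpl13a holds 4 small nucleolar RNA genes and overlaps Gm45713 on the same strand. That of Rpl24 overlaps Gm28037 on the same strand. Whether reads of these other genes entered the counts was not tested.

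**Figure D2:**
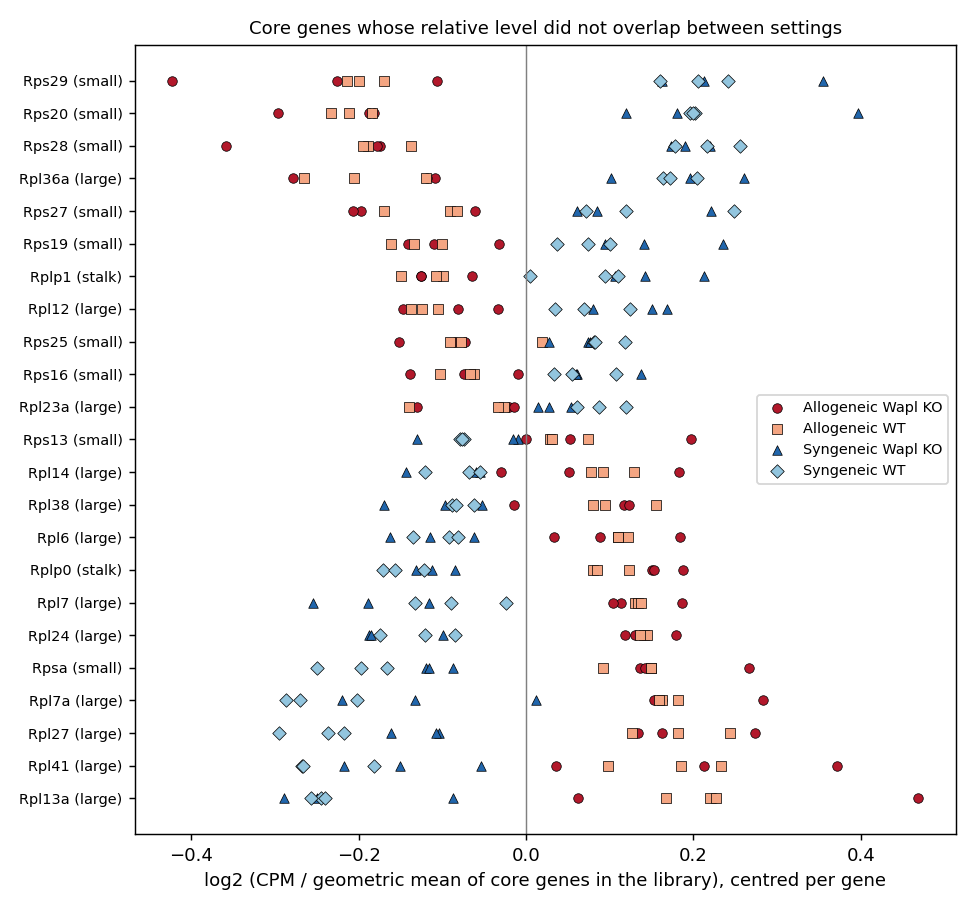
Core genes named above whose level relative to the geometric mean of the core genes did not overlap between the 6 allogeneic and the 6 syngeneic libraries (x axis: log2 units, centred per gene; each point is a library; subunit in brackets). Genes at the top, led by Rps29 (−0.45), are lower in allogeneic libraries of both genotypes, and genes at the bottom, led by Rpl13a (0.46), are higher.

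Between KO and WT the relative levels had the smaller SDs given above. In syngeneic libraries 9 core genes were higher and 7 lower without overlap (1.08% and 11.2% of all tested genes on the same scale), and in allogeneic libraries 2 were higher and 0 lower (0.905% and 2.69%). The mean differences spanned −0.30 to 0.16 in syngeneic and −0.12 to 0.08 in allogeneic libraries. The lowest of all was Rpl35a in syngeneic libraries, at 196.5, 120.0 and 80.3 CPM in KO and 149.1, 111.1 and 105.9 CPM in WT, with overlap.

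The summed messenger RNA of the small subunit, set against that of the large subunit with its stalk, separated the settings in the same way. The ratio was 0.740, 0.764 and 0.735 in allogeneic KO, 0.746, 0.736 and 0.738 in allogeneic WT, 0.814, 0.795 and 0.786 in syngeneic KO, and 0.802, 0.793 and 0.791 in syngeneic WT. All 6 allogeneic libraries were below all 6 syngeneic ones, and KO and WT overlapped within each setting. Group means were 0.747 ± 0.0156 in allogeneic KO, 0.740 ± 0.00556 in allogeneic WT, 0.798 ± 0.0144 in syngeneic KO and 0.795 ± 0.00611 in syngeneic WT (SD, n = 3 each). Without Rps29, Rps20 and Rps28 the means were 0.702 in allogeneic KO and 0.734 in syngeneic KO, and 0.694 in allogeneic WT and 0.732 in syngeneic WT. The ratio then ran from 0.690 to 0.723 in allogeneic KO and from 0.721 to 0.752 in syngeneic KO, so that allogeneic KO replicate 2 lay above syngeneic KO replicate 3, while WT still separated (0.691 to 0.701 in allogeneic, 0.728 to 0.737 in syngeneic). Ribosomal RNA rows took 6.62 to 14.9% of counts in the 6 allogeneic libraries and 17.2 to 27.4% in the 6 syngeneic ones. That share separated the settings as well, and its part in the ratio and in the relative levels was not tested.

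**Figure D3:**
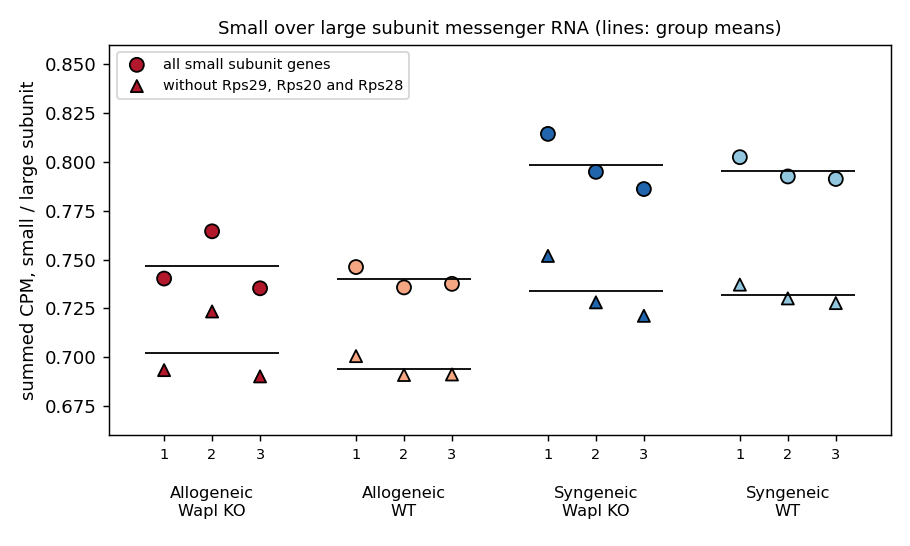
Summed CPM of the 30 small subunit genes over that of the 46 large subunit and stalk genes in each library (circles), and the same without Rps29, Rps20 and Rps28 (triangles); lines are group means and the y axis does not start at 0. Circles lie at 0.735 to 0.764 in allogeneic and at 0.786 to 0.814 in syngeneic libraries; triangles of the 2 settings overlap by a single library.

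The paralogs were far less abundant than the core genes. Rpl3l, which is made in heart and skeletal muscle in place of Rpl3, had 0 to 5 reads in a library, and Rpl10l, a testis gene, had 0 in all 12. Against these, their partners were abundant: Rpl3 averaged 680.9 ± 238 CPM in allogeneic KO, 563.3 ± 98.3 in allogeneic WT, 845.1 ± 265 in syngeneic KO and 670.2 ± 115 in syngeneic WT (SD, n = 3 each). Rpl10 averaged 311.8 ± 102 CPM in allogeneic KO, 259.1 ± 45.2 in allogeneic WT, 398.8 ± 104 in syngeneic KO and 307.9 ± 56.5 in syngeneic WT.

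Rpl39l, the testis-enriched paralog of Rpl39 (ENSMUSG00000039209, chromosome 16, 10170226 to 10174911, plus strand), rested on few reads. It stood at 2.09, 4.87 and 1.30 CPM (89, 292 and 90 reads) in allogeneic KO and 0.804, 0.739 and 0.297 CPM (40, 43 and 15 reads) in syngeneic KO. In WT it stood at 0.746, 1.85 and 1.22 CPM (43, 182 and 72 reads) in allogeneic and 0.653, 0.188 and 0.494 CPM (42, 11 and 29 reads) in syngeneic libraries. The allogeneic libraries were above the syngeneic ones of the same genotype without exception. The log2 fold change was 2.16 in KO (SE 0.58, edgeR adjusted p = 0.0167) and 1.51 in WT (SE 0.58, adjusted p = 0.0640), and without allogeneic KO replicate 2 the KO value lost its call (1.49), as it did without syngeneic KO replicate 3 (1.84). Rpl39 itself went the other way in the fitted values, at −0.26 in KO (SE 0.30, adjusted p = 0.555) and −0.44 in WT (SE 0.30, adjusted p = 0.272), neither of which passed.

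Rps27l, a paralog of Rps27 induced by p53 in human and mouse cells (ENSMUSG00000036781, chromosome 9, 66946086 to 66949516, plus strand), was the most abundant paralog. It stood at 40.3, 65.4 and 29.5 CPM in allogeneic KO and 34.1, 27.8 and 28.9 CPM in syngeneic KO, with overlap. In WT it stood at 40.0, 27.2 and 31.4 CPM in allogeneic and 23.0, 20.98 and 24.1 CPM in syngeneic libraries, without overlap. The log2 fold changes of 0.57 in KO (SE 0.24, edgeR adjusted p = 0.0971) and 0.53 in WT (SE 0.24, adjusted p = 0.105) did not pass. When libraries were instead scaled on the core genes, so that each gene is read relative to them, Rps27l was called higher in allogeneic libraries in KO (0.85, SE 0.20, edgeR adjusted p = 0.0151) and in WT (0.75, SE 0.20, adjusted p = 0.0246). This scaling raised genes in general: the median over all tested genes was 0.37 in KO and 0.22 in WT. The share of all tested genes called on it is not given here, so these calls are not read as particular to Rps27l. Rps27 was lower in allogeneic libraries on the relative scale (−0.27).

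Rps4l, annotated as a transcribed processed pseudogene close in sequence to Rps4x (ENSMUSG00000063171, chromosome 6, 148354656 to 148355598, plus strand), was highest in syngeneic KO. It stood at 0.938, 2.09 and 1.14 CPM in allogeneic KO, 1.01, 0.916 and 1.25 CPM in allogeneic WT, 2.73, 2.53 and 2.64 CPM in syngeneic KO and 1.07, 0.873 and 1.40 CPM in syngeneic WT, on 40 to 147 reads a library. The 3 syngeneic KO libraries lay above the other 9. KO was above WT in syngeneic recipients (log2 fold change 1.24, SE 0.31, edgeR adjusted p = 0.0496; 1.22, SE 0.25, adjusted p = 0.0151 with the replicate block), and allogeneic KO was below syngeneic KO (−0.92, SE 0.31, adjusted p = 0.0468). Leaving out single libraries gave adjusted p from 0.0207 to 0.261 for the first value, with the call lost in 9 of 12 cases, and from 0.00808 to 0.154 for the second, with the call lost in 11. The gene lies inside the span of Tmtc1 on the opposite strand, and reads shared with Rps4x (490.5 to 1298 CPM) could be assigned to it, so its level is uncertain.

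**Figure D4:**
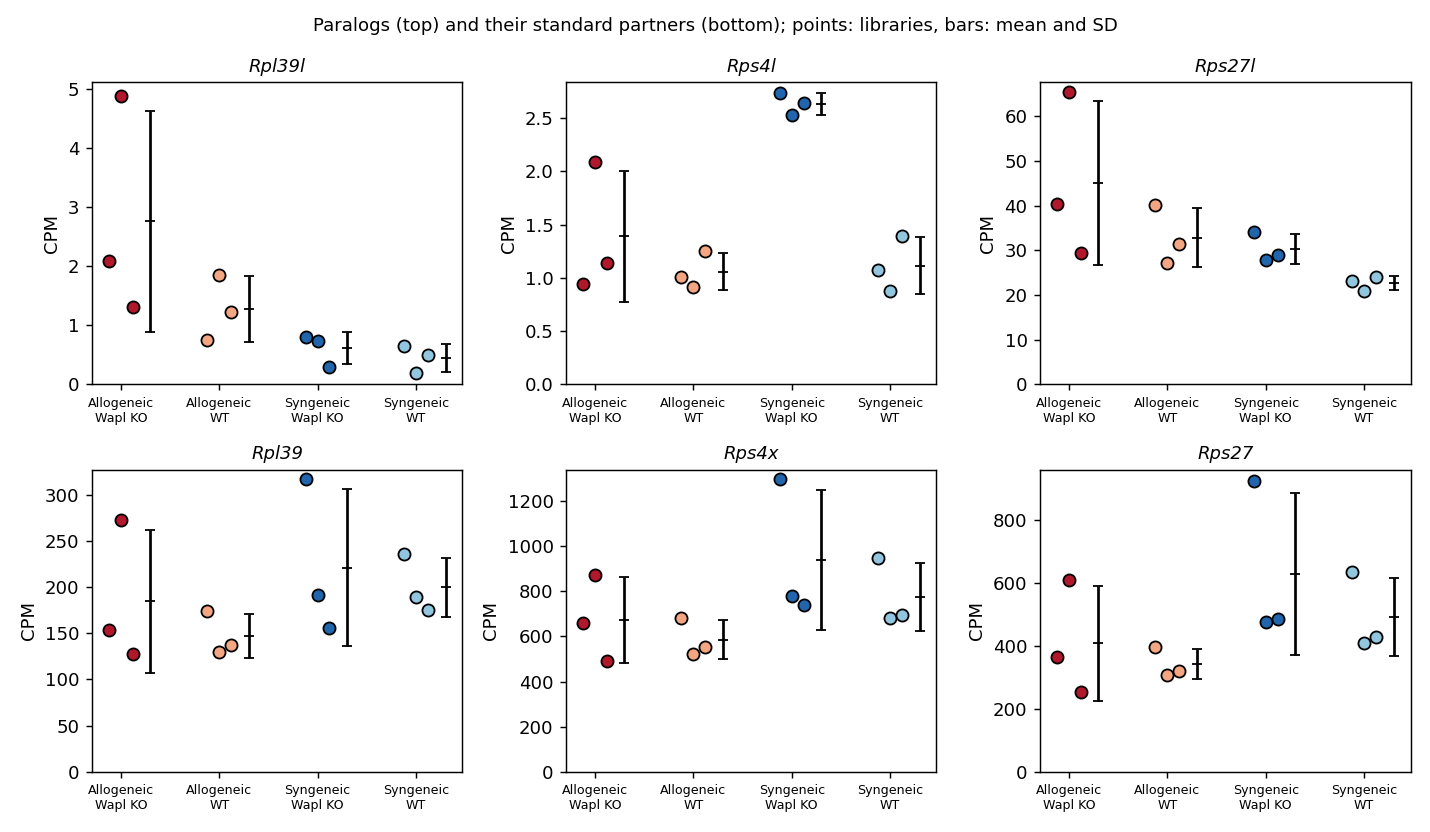
CPM in each library (points) with the group mean and SD (bars, n = 3) for 3 paralogs in the top row and their standard partners in the bottom row; the y axes start at 0 and differ between panels. Rpl39l and Rps27l reach their highest values in allogeneic Wapl KO, and Rps4l lies at 2.53 to 2.73 CPM in syngeneic Wapl KO and at or below 2.09 elsewhere.

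The remaining landmark genes followed the block between libraries and were not called in any of the 5 comparisons. Rpl22, needed for the development of alpha beta T cells in mice, averaged 196.9 ± 73.4 CPM in allogeneic KO, 159.9 ± 23.4 in allogeneic WT, 229.4 ± 80.0 in syngeneic KO and 196.9 ± 28.9 in syngeneic WT (SD, n = 3 each). Rpsa, also known as the laminin receptor, averaged 1679 ± 624 CPM in allogeneic KO, 1339 ± 200 in allogeneic WT, 1745 ± 581 in syngeneic KO and 1264 ± 250 in syngeneic WT. Rps3, which has a DNA repair role, averaged 1239 ± 583 CPM in allogeneic KO, 1005 ± 214 in allogeneic WT, 1486 ± 652 in syngeneic KO and 1151 ± 209 in syngeneic WT. For these 3 genes the SD of a KO group exceeded its distance from the matching WT group.

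Rpl5 and Rpl11 bind 5S ribosomal RNA. Rpl5 averaged 331.4 ± 131 CPM in allogeneic KO, 275.7 ± 49.7 in allogeneic WT, 424.2 ± 145 in syngeneic KO and 360.1 ± 66.6 in syngeneic WT. Rpl11 averaged 307.1 ± 109 CPM in allogeneic KO, 258.5 ± 42.4 in allogeneic WT, 368.3 ± 102 in syngeneic KO and 273.4 ± 51.3 in syngeneic WT. Rps27a, made as a fusion with ubiquitin, averaged 279.0 ± 111 CPM in allogeneic KO, 227.1 ± 41.6 in allogeneic WT, 361.6 ± 123 in syngeneic KO and 297.1 ± 54.7 in syngeneic WT. Rpl11 was among the genes called in syngeneic KO under the replicate block.

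The stalk genes differed among themselves between settings. Rplp0 averaged 1647 ± 632 CPM in allogeneic KO and 1737 ± 621 in syngeneic KO, and 1303 ± 250 in allogeneic WT and 1299 ± 229 in syngeneic WT. Rplp1 averaged 620.3 ± 237 CPM in allogeneic KO and 942.1 ± 314 in syngeneic KO, and 509.6 ± 95.7 in allogeneic WT and 690.2 ± 151 in syngeneic WT. Rplp2 averaged 394.4 ± 142 CPM in allogeneic KO and 532.1 ± 189 in syngeneic KO, and 339.6 ± 50.3 in allogeneic WT and 408.6 ± 83.1 in syngeneic WT. On the relative scale Rplp0 was higher and Rplp1 lower in all 6 allogeneic libraries, without overlap, whereas in CPM none of the 3 was called.

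The members lie on 19 chromosomes, with 14 on chromosome 7 and 4 on the X (Rpl10, Rpl36a, Rpl39 and Rps4x). The X-linked genes did not stand outside the autosomal ones between KO and WT: their log2 fold changes were 0.14 to 0.37 in syngeneic and 0.20 to 0.33 in allogeneic recipients, within the ranges of all core genes. Rpl36a stood at 116.4, 158.0 and 80.9 CPM in allogeneic KO and 256.4, 157.7 and 165.1 CPM in syngeneic KO, and at 111.4, 85.6 and 94.2 CPM in allogeneic WT and 185.2, 127.4 and 138.4 CPM in syngeneic WT. It overlapped between the KO groups by 1 library and not between the WT groups, and it was not called by edgeR (−0.70, SE 0.25, adjusted p = 0.0569 in KO; −0.63, SE 0.25, adjusted p = 0.0701 in WT). Rpl36a was named after its values were seen.

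Genes that make or regulate ribosomes were read beside the members. Of 32 ribosome biogenesis genes, edgeR called 0 higher and 20 lower in allogeneic against syngeneic KO (11.2% of all tested genes were lower), and 0 and 15 in WT (15.9% lower); between KO and WT it called 0 in either setting (at an unadjusted p under 0.05, 2 higher in syngeneic and 0 in allogeneic). Polr1b, a subunit of RNA polymerase I, fell by 1.08 on the log2 scale in KO (SE 0.11, edgeR adjusted p = 1.92e-05) and by 0.73 in WT (SE 0.11, adjusted p = 0.000313). Fbl, the methyltransferase fibrillarin, fell by 0.80 in KO (SE 0.19, adjusted p = 0.00869) and was not called in WT. The median of the list was −0.59 in KO and −0.37 in WT.

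Of 18 regulators of ribosomal protein messenger RNAs, 17 were tested. In KO edgeR called 4 lower (Myc, Rptor, Larp1 and Larp4) and 0 higher, against 11.2% and 13.2% of all tested genes. In WT it called 2 lower (Myc and Rptor) and 1 higher (Eif4ebp2), against 15.9% and 16.4% of all tested genes. Myc, which drives transcription of many ribosomal genes, fell by 1.30 in KO (SE 0.15, adjusted p = 3.74e-05) and by 1.21 in WT (SE 0.15, adjusted p = 4.89e-05). Rptor, the mTORC1 subunit raptor, fell by 0.86 in KO and by 0.68 in WT. Larp1 fell by 0.54 in KO (SE 0.18, adjusted p = 0.0420).

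Of 25 other TOP messenger RNAs, edgeR called 1 higher and 2 lower in KO and 1 higher and 3 lower in WT. The shares of all tested genes are given with the next list. Gas5, a host of small nucleolar RNAs, fell by 0.70 in KO and by 0.83 in WT, and Pabpc4 fell by 0.52 and 0.64. Vim rose (0.95 in KO, 1.40 in WT). Eif4a2 fell in WT alone by call (−0.63), which is no test of a difference between genotypes. Of 76 tested mitochondrial ribosomal protein genes, 1 was called higher and 4 lower in KO and 6 higher and 0 lower in WT (of all tested genes 13.2% higher and 11.2% lower in KO, 16.4% and 15.9% in WT), with list medians of 0.15 and 0.21 beside −0.33 for the members in KO and −0.25 in WT. Ribosomal relatives outside the symbol rule (such as Fau, Gnb2l1 and Rpl22l1) had 0 of 7 called by edgeR in every comparison, with 1 higher at an unadjusted p under 0.05 in syngeneic KO against WT and 0 in the other comparisons. The 8 naive T cell markers, such as Ccr7 and Lef1, summed to 1355 to 1417 CPM in allogeneic KO and 2465 to 3732 in syngeneic KO, and to 1577 to 1763 CPM in allogeneic WT and 2881 to 3714 in syngeneic WT. Not all 8 fell: in each genotype edgeR called 5 lower (against 11.2% of all tested genes in KO and 15.9% in WT), and 3 had a fitted value above 0. Fitted values ran from −4.34 to 0.25 in KO and from −3.94 to 0.39 in WT. The part of these markers in the differences of the members was not tested.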

How the data were processed

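RNA was depleted of ribosomal RNA before library construction, per the labels' protocols. The authors deposited unscaled expected counts (94.53 to 95% of a library's values were whole numbers), which were rounded to whole numbers. Per the submitters' processing notes the tools were TopHat2 2.0.13, Bowtie2 2.2.1, Cufflinks and Cuffdiff 2.2.1 on GRCm38; the counting tool, its annotation and its use of strand are not given in the sources used here. Of 18 labelled samples, columns of 12 were matched by identifier; 6 further columns carry the identifiers of allogeneic samples with a prefix and were not used, and the 6 naive samples were not analysed here. Of 46073 rows, 45139 matched GENCODE M21.

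One edgeR 4.0.16 quasi-likelihood model (R 4.3.3, limma 3.58.1; TMM scaling, filterByExpr with a count minimum of 10, robust) with 4 group means took in 12 libraries and 18447 genes. It left 8 residual degrees of freedom and a biological coefficient of variation of 0.249. Tests were two-sided, with Benjamini-Hochberg adjustment over all tested genes and calls under 0.05; standard errors are the log2 fold change over the root of F. The code was tested on simulated data. CPM use TMM-scaled library sizes; transcript length is the median over annotated transcripts of a gene. DESeq2 1.42.0 and other scalings, filters, samples and pairings were alternatives. Depth limits precision for the paralogs of few reads; spread between libraries limits it for the core genes.

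Residuals of same-numbered libraries correlated at 0.545, 0.170 and 0.335 between syngeneic KO and WT over all tested genes, all above the limit of 0.1 set for pairing, and not in every number for any other pair of groups. Between differently numbered syngeneic libraries, KO replicate 3 with WT replicate 2 (0.363) and KO replicate 2 with WT replicate 3 (0.114) also passed this limit. The labels do not state a pairing.

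The members and lists were chosen with earlier results of these data known. Named members were those called in any comparison, the extremes by CPM per kb with a mean of at least 1 CPM, the paralogs with their partners, and a set of landmarks by known role. Some genes are not reported here by name.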

Additional observations from a re-analysis of the deposited data

How the results depend on the processing

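For syngeneic KO against WT the count of 1 member called higher was 0 with DESeq2 size factors, total counts, no ribosomal RNA rows, no filter, only the groups compared, the replicate block over 12 libraries, and scaling on the core genes; it was 15 with the replicate block within the 6 syngeneic libraries, and 0 to 1 when single libraries were left out. For allogeneic KO against WT and for the interaction all counts were 0 under every alternative run. For allogeneic against syngeneic WT the count called higher (0) was 1 with DESeq2, and 2 with only the groups compared, with scaling on the core genes and without the 2 libraries of highest ribosomal protein level (0 to 2 when single libraries were left out). The count called lower (0) was 4 with total counts, with DESeq2 and with the replicate block over 12 libraries, 11 with only the groups compared, 9 without the 2 libraries, and 0 to 4 when single libraries were left out. For allogeneic against syngeneic KO the count called higher (1) was 2 with total counts and with scaling on the core genes, 0 without the 2 libraries, and 0 to 2 when single libraries were left out; the count called lower (4) was 1 with no filter, 0 with only the groups compared and with scaling on the core genes, and 0 to 13 when single libraries were left out. Scaling on the core genes and leaving out the 2 libraries together were chosen after seeing the data. Apart from the block within the syngeneic libraries, the shares of all tested genes called under these alternatives are not given here. Total counts moved the median log2 fold change of all genes to −0.09 in syngeneic and −0.11 in allogeneic KO against WT (0.06 and 0.03 with TMM) and those of the core genes to 0.18 and 0.12, with 73 and 74 of 76 above 0. For allogeneic KO against WT, leaving out single libraries gave −0.0556 to 0.463 for Rps20, −0.0805 to 0.397 for Rps28, −0.0379 to 0.413 for Rps29 and −0.026 to 0.610 for Rps4l, negative without allogeneic KO replicate 2. Without the 2 libraries these were −0.055, −0.0799, −0.0373 and −0.0237, and on core scaling Rps20 was −0.0108, Rps28 −0.061 and Rps29 −0.0512. Rps28 in syngeneic KO against WT was −0.0226 on core scaling. Rps4l in allogeneic against syngeneic WT (−0.08) was 0.173 on core scaling and −0.224 to 0.118 when single libraries were left out, positive without allogeneic WT replicate 2 or syngeneic WT replicate 3. Of the other values of single genes, 640 kept direction and side of the threshold, 62 lost a call, and 49 gained a call. The cause was not tested, except that scaling on the core genes brings their mean near 0 by construction.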
